A study of Homo sapiens with 7 samples.

Results

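Human embryonic stem cells that lack all TET enzymes were followed from cardiac mesoderm (CME, day 3) to the cardiac progenitor stage (CP, day 8), and the DNA that gained or lost methylation in that interval is described here. Each CpG was read by enhanced reduced representation bisulfite sequencing, which enriches CpG-rich DNA and reads methylated cytosine as C and unmethylated cytosine as T. Reads of both strands were summed per CpG, CpGs with 10 or more reads in both libraries were kept, and bins of 1 kb with 5 or more such CpGs were compared. Of 123508 bins readable in at least 1 library of the series, 93547 met this rule. A bin was called higher or lower when the share of C reads differed by 25 percentage points or more at an adjusted p below 0.01 (Fisher's exact test, two-sided, Benjamini-Hochberg over all bins). By that rule 686 bins were higher in CP, 0.733% of bins, and 55 were lower, 0.0588%.

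The line was HUES8, a long-established line of human embryonic stem cells. Wild-type cells (WT) and cells with TET1, TET2 and TET3 all disrupted (TKO) were differentiated as a monolayer with the GSK3 inhibitor CHIR99021 and then the Wnt antagonist IWP2. The TKO libraries were stem cells (SC, day 0), CME and CP, and the WT libraries were SC, CME, CP and beating cardiomyocytes (CM, day 14). Per the series text TKO cells formed no beating cardiomyocytes. Each genotype and stage had 1 library, so every test compares libraries and covers counting error only, and whether the TKO line is a single clone is not given in the sources used here. A level is an average over all cells of a culture, so a change within cells and a change in the mix of cells cannot be told apart. The files hold no expression, so neither the knockout nor the stage was checked against a marker. Coverage summed over cytosines ran from 120742115 to 213058905 between libraries. TKO CME and TKO CP had medians of 86 and 62 reads per shared CpG. Reads given below for a bin or promoter are sums over its CpGs, so a read that covers several CpGs counts at each.

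TET enzymes oxidise 5-methylcytosine to 5-hydroxymethylcytosine and further products, which leads to its replacement by unmethylated cytosine. DNMT3A and DNMT3B add methyl groups to unmethylated sites, and DNMT1 with UHRF1 copies methylation after replication. Promoters and enhancers of developmental genes are normally kept free of methylation, and TET enzymes are known to keep DNMT3 activity from spreading into them in embryonic stem cells.

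The promoters below carry the main patterns. MAOA and DRC1 gained to near full methylation at the CpGs read in the bases shown, and ZNF799 gained from nearly none. ZNF880 gained past a WT level that was itself intermediate, and ABHD1 lost methylation. Each line holds the 250 bases before a gene start, 5′ to 3′ on the gene's strand, from RefSeq (GRCh38.p14). Capitals mark the CpGs read in both TKO libraries.
MAOA: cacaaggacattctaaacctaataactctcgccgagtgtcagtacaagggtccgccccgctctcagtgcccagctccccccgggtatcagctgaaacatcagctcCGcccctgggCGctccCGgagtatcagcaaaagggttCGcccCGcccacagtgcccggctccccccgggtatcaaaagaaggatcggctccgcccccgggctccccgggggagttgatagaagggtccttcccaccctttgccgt
DRC1: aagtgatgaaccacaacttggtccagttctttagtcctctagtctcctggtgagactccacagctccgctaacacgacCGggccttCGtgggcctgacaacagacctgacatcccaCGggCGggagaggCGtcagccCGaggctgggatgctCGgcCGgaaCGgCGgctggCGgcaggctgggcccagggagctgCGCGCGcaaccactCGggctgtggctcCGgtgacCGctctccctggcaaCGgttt
ZNF799: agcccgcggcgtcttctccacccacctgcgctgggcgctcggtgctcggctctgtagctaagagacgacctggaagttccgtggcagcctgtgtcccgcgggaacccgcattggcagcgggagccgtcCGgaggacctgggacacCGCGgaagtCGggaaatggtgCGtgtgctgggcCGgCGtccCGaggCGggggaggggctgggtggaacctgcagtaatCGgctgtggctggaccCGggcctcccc
ZNF880: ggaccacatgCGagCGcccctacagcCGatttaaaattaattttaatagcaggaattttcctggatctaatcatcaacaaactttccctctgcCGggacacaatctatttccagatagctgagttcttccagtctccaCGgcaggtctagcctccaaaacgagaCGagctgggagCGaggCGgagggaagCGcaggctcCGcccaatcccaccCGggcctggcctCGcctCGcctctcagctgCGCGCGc
ABHD1: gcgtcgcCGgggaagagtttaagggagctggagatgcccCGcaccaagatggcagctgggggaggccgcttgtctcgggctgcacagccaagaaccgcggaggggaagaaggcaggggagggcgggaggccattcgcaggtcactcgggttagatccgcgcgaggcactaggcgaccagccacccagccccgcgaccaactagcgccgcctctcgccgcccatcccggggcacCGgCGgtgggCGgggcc
On hg19 these promoters lie at chrX:43515297-43515546 for MAOA, chr2:26624538-26624787 for DRC1, chr19:12511795-12512044 for ZNF799 on the minus strand, chr19:52872926-52873175 for ZNF880 and chr2:27346433-27346682 for ABHD1. These positions come from matching the spacing of the CpGs in the RefSeq sequence to the CpGs in the files, and gene starts placed in this way are called placed starts.

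MAOA encodes monoamine oxidase A, which breaks down serotonin and noradrenaline. The 5 CpGs read in its promoter were at 1.48%, 1.61%, 0% and 2.05% in WT cells at SC, CME, CP and CM. In TKO cells they were at 16.3% of 80 reads in CME and at 97.3% of 110 reads in CP, and the 2 CpGs read in TKO SC were at 25% of 24 reads. The 5 CpGs ranged from 7.14 to 28.6% in TKO CME and from 95.2 to 100% in TKO CP, and the ranges of the stages did not overlap. Each had 12 to 27 reads in TKO CME and 15 to 27 in TKO CP. A read can cover several of these CpGs, so they are not independent measurements. The difference of 81.0 points was the largest rise of any bin. Its 95% interval, 70.2 to 87.8, treats the summed reads as independent. The neighbouring bin chrX:43514001-43515000, also within 1 kb of the start, rose from 11.2 to 41.8% over 30 CpGs. Near full methylation was thus not reached across all of this promoter.

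DRC1 encodes a subunit of the nexin-dynein regulatory complex of motile cilia. In TKO cells its 18 CpGs were at 28.0%, 30.2% and 94.1% at SC, CME and CP, against 4.73%, 5.25%, 0.338% and 0.992% in WT cells from SC to CM. All WT libraries lay below all TKO libraries, and the knockout promoter was partly methylated from day 0. ZNF799, which encodes a C2H2 zinc finger protein, started elsewhere: its 11 CpGs held 0.435% at TKO SC and 0.499% at TKO CME, within the 0 to 1.67% of the WT libraries, while 71.7% of 1119 reads were methylated in TKO CP. The lowest of these CpGs reached 54.8% in TKO CP. ZNF880, another zinc finger gene, had 16 CpGs at 12.5%, 11.1% and 80.5% in TKO cells at SC, CME and CP, whereas the WT libraries held 34.8 to 49.4%. There the knockout began below every WT library and ended above every one.

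ABHD1, which encodes a protein of the alpha/beta hydrolase fold family, showed an uneven loss over 5 CpGs, from 62.3% of 175 reads in TKO CME to 19.8% of 247 reads in TKO CP. The 2 CpGs farthest from the start were at 86.4% and 69.8% in CME and at 95% and 85.7% in CP. The 3 CpGs next to the start went from 77.8%, 32.4% and 45.5% to 7.14%, 3.66% and 7.32%. The plot of single CpGs shows this split, and it shows the other promoters moving as blocks.

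**Figure D1:**
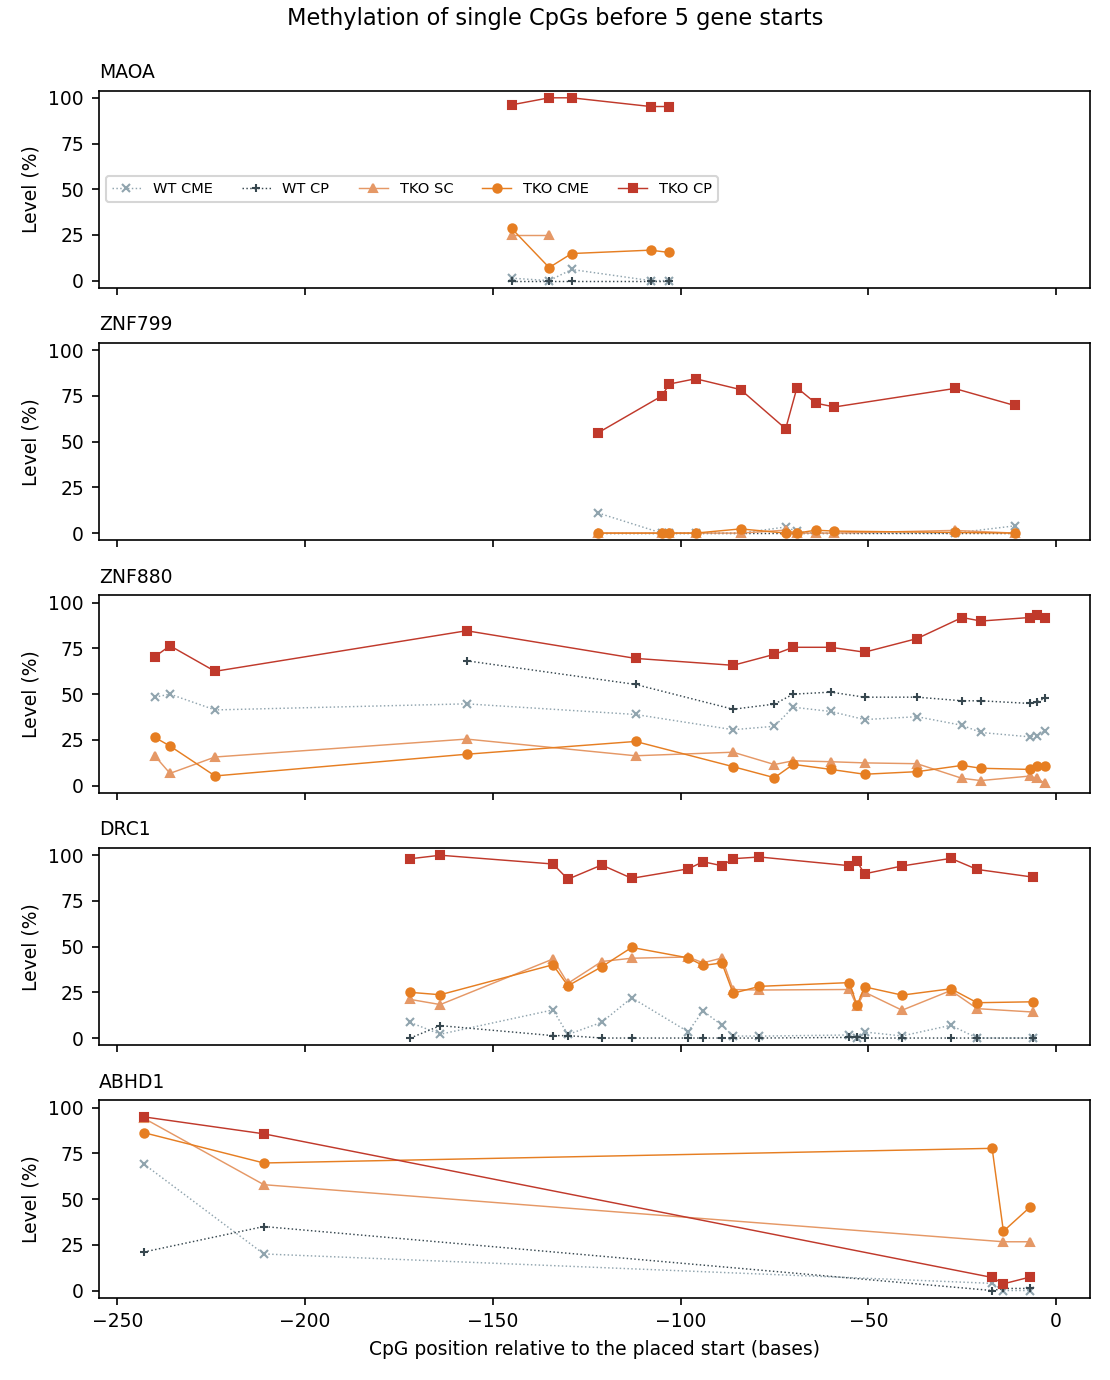
Methylation level of each CpG (% of reads) against its position relative to the placed start (bases) in 5 promoters, with points for WT CME, WT CP, TKO SC, TKO CME and TKO CP. TKO CP (squares) lies above the other libraries shown at every CpG of MAOA, DRC1, ZNF799 and ZNF880, while in ABHD1 it falls to between 3.66 and 7.32% at the 3 CpGs nearest to the start.

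Over all bins the shift from TKO CME to TKO CP was small and mostly upward. The median difference was 1.60 points (95% interval of the median 1.57 to 1.64) and 0.619 points over bins with 10 or more CpGs, and 67.8% of bins had a positive difference. Over 1922425 CpGs the mean level was 45.7% in CME and 47.8% in CP, and the share of CpGs between 20 and 80% was 13.4% in CME and 10.1% in CP. By adjusted p alone, without the requirement of 25 points, 21280 bins were higher and 4421 lower. The grid of bins shows that the called bins are the tails of this distribution: 53 bins lay 25 to 26 points higher and were called, and 58 lay 24 to 25 points higher and were not.

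**Figure D2:**
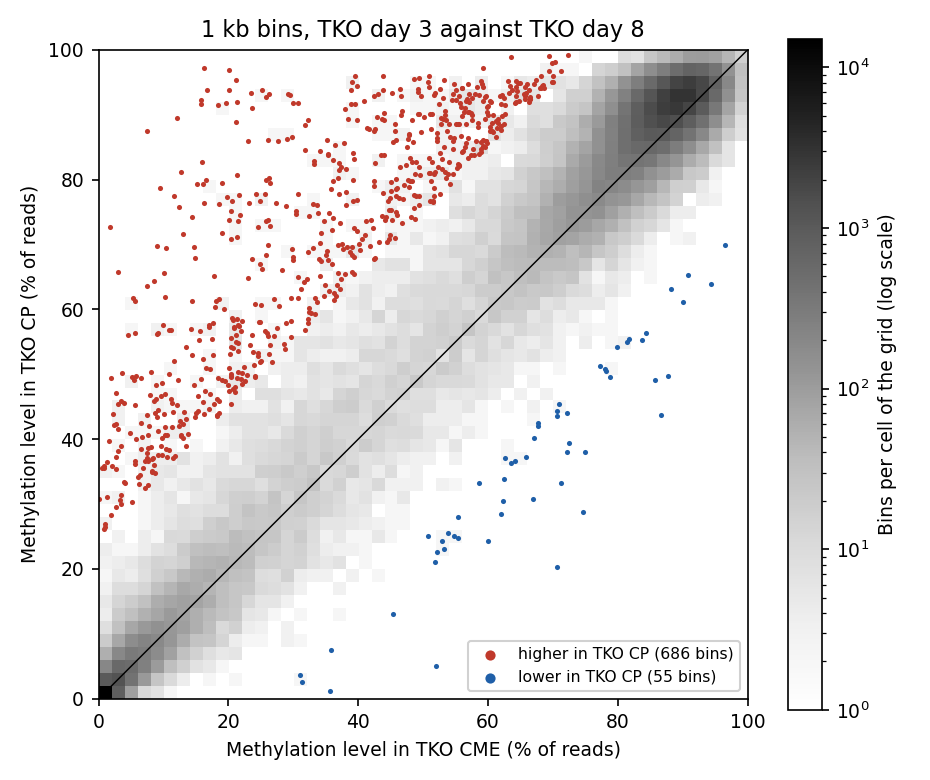
Level of each 1 kb bin in TKO CME (x axis, % of reads) and TKO CP (y axis, % of reads), with grey cells for the number of bins on a log scale and points for the called bins. The 686 higher bins fill the area above the diagonal, and the 55 lower bins form a thin band below it.

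The share of bins that gained differed with the level at mesoderm. Of bins at 40 to 60% in TKO CME 10.8% were higher in CP, and of those at 20 to 40% it was 8.22%, against 0.738% of bins under 20% and 0.755% of bins at 60 to 80%. Bins over 80% had less than 25 points left to rise, and none was called higher. The upper part of the 60 to 80% class also had less than 25 points left, which lowers its share. Among bins at 20 to 80% in TKO CME, the share rose with CpG number, from 1.49% of bins with 5 to 9 CpGs and 4.51% with 10 to 19 to 11.1% with 20 to 39 and 11.2% with 40 or more. Under 20% in TKO CME, where 190 of the gains lay, the share went the other way, from 1.55% and 0.993% to 0.701% and 0.287% over the same classes. At 20 to 80% in TKO CME the WT level also separated bins: 358 of 3068 bins (11.7%) under 20% in WT CME were higher. The shares were 1.71% of those at 20 to 80% and 0.405% of those over 80% in WT CME. Bins that were low in WT mesoderm and partly methylated in TKO mesoderm thus held 358 of the 686 gains. The classes by CpG number and by WT level were not matched on their exact TKO CME level.

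**Figure D3:**
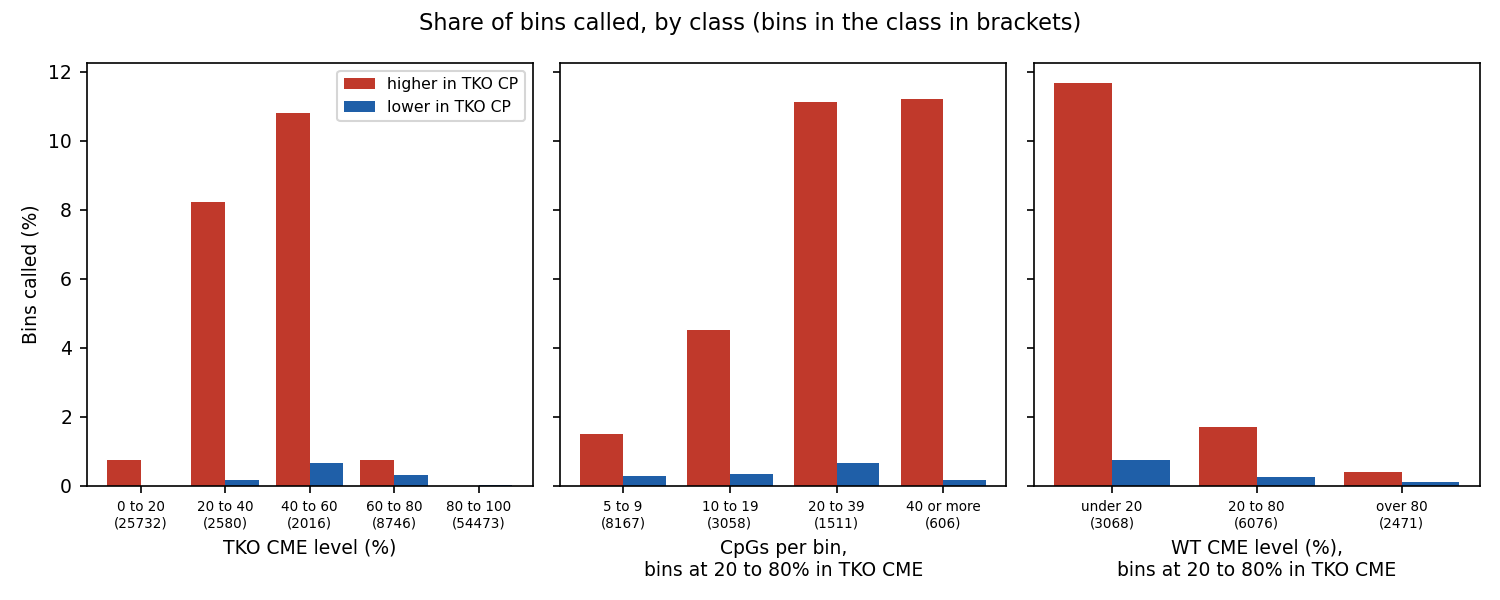
Percent of bins called higher or lower in TKO CP by the TKO CME level, and, within bins at 20 to 80% in TKO CME, by CpG number and by the WT CME level. The share called higher peaks at 10.8% for bins at 40 to 60% and at 11.7% for bins under 20% in WT CME.

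The neighbourhood differed as well. For higher bins at 20 to 40% in TKO CME, the more methylated of the adjacent bins had a median of 48.3% in that library, against 12.02% for bins of the same level that were not called. At 40 to 60% these medians were 62.2% and 29.3%, and at 60 to 80% the order was the other way, with 67.0% and 84.3%. Under 20% they were 16.5% and 1.58%. The share of bins with an adjacent bin over 80% differed little at 40 to 60%, at 27.4% of higher bins and 28.7% of bins not called. At 60 to 80% it was 28.9% of higher bins and 63.5% of bins not called. Only bins with a measured adjacent bin are counted, such as 38 of the 66 higher bins at 60 to 80%. These values are a description with no test.

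The libraries the rule did not use place these bins in the whole series. Of the 686 higher bins, 650 had 5 or more CpGs read in all 7 libraries. Their median levels in WT cells were 5.42%, 7.13%, 3.14% and 3.91% at SC, CME, CP and CM, and in TKO cells 31.2%, 34.3% and 76.4% at SC, CME and CP. TKO SC and TKO CME lay within 10 points of each other in 86.0% of them, fewer than the 96.8% of all bins, and the medians show partial methylation at day 0 as at day 3. In 501 (77.1%) all 4 WT libraries were under 20%, against 33.8% of all bins. These comparisons with all bins are not matched on level. Of the 93547 bins 54473 were at 80 to 100% in TKO CME, where none could be called higher. TKO CP was over 80% in 277 and over 90% in 136.

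The higher bins split by their starting level. In 381 the WT CME level was under 20% and the TKO CME level more than 10 points above it. In 142 TKO CME was within 10 points of such a WT level, and these had medians of 4.81% in WT CME, 8.72% in TKO CME and 44.0% in TKO CP. In 127 WT CME was 20% or more, and in 58 of those TKO CME lay below WT CME, with medians of 46.9% in WT CME, 42.4% in WT CP, 35.3% in TKO CME and 77.0% in TKO CP. From under 5% in TKO CME, 36 of 20342 bins were higher, 0.177%, and their median in TKO CP was 36.9%. ZNF799 reached the highest level of these, 72.6% over its bin.

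**Figure D4:**
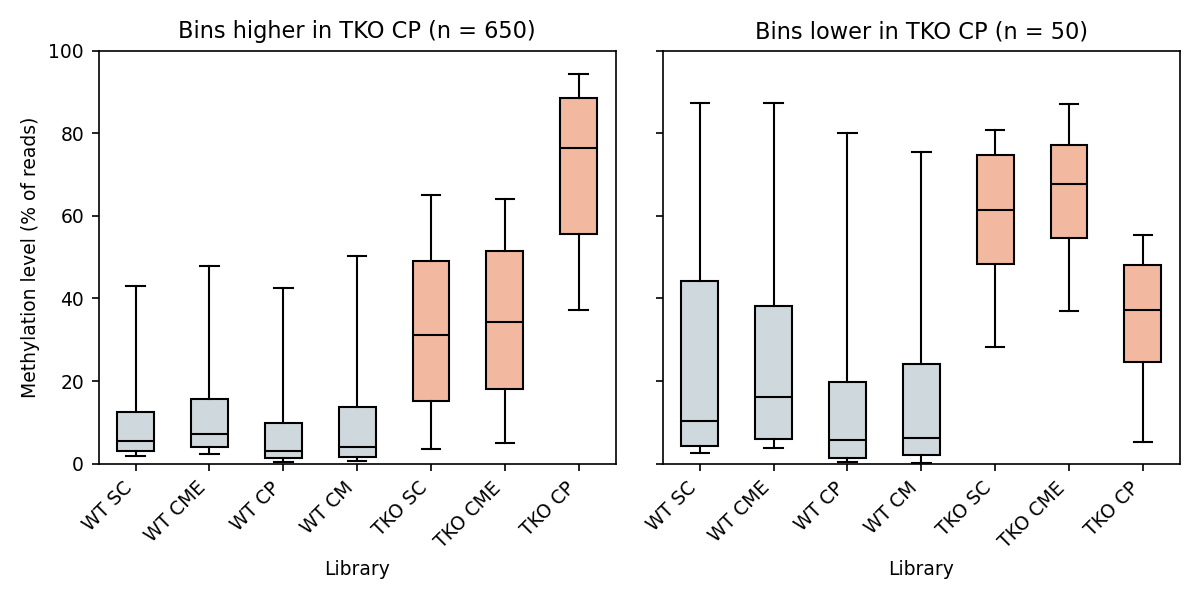
Methylation level (% of reads) in all 7 libraries for the 650 higher and 50 lower bins with 5 or more CpGs read in every library. Boxes are quartiles with the median and whiskers run from the 5th to the 95th percentile of bins. The higher bins have medians of 34.3% at TKO CME and 76.4% at TKO CP, and the lower bins of 67.8% and 37.1%.

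The losses mostly began from levels above those of WT cells. In the 50 bins read in all libraries the WT medians from SC to CM were 10.4%, 16.2%, 5.63% and 6.16%, against TKO medians of 61.4%, 67.8% and 37.1% from SC to CP. TKO CME was above WT CME in 43 of the 50, and in 43 TKO CP was nearer to WT CP than TKO CME was. The second count follows largely from the choice of bins, since a fall from above the WT level tends to end nearer to it. WT CP was below WT CME in 46, and by 25 points or more in 7. Neither direction was particular to the losses. Of the 650 higher bins, TKO CME was above WT CME in 557 and WT CP below WT CME in 547, by 25 points or more in 10. Over bins read in all 4 CME and CP libraries the median of WT CP minus WT CME was -1.73 points. In these bins, then, methylation fell in cells labelled as lacking all TET enzymes. All 4 WT libraries were under 20% in 27 of the 50 (54%), against 33.8% of all bins, which were not matched on their TKO CME level.

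Most CpGs of a called bin moved with it, which the choice of bins favours. Of 15944 CpGs in the higher bins 71.7% rose by 25 points or more, against 1.87% of CpGs in all bins, and in 468 bins every CpG rose. Of 752 CpGs in the lower bins 63.8% fell by 25 points or more, against 0.437% in all bins. The strands were read separately, so a call on one can be compared with the other. Of 333 bins called higher from the plus strand, 245 were also called higher from the minus strand, where 1.17% of bins were called. Of 18 bins called lower from the plus strand, 9 were also called lower from the minus strand, where 0.1% were called.

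Neighbouring gains formed 546 regions, of which 435 were single bins and 21 held 3 or more called bins, while the 55 losses were all single bins. The region with the most called bins was chr4:13537001-13545000, with 6 bins, which lies 1132 bp from the placed start of NKX3-2, a homeobox gene of the axial skeleton. Over its 110 CpGs the TKO level was 12.9%, 17.0% and 56.2% at SC, CME and CP, and 2.05 to 4.98% in the WT libraries. A region at chr5:1875001-1878000 near IRX4 went from 27.4 to 90.8%, and one at chr8:23562001-23565000 from 17.9 to 83.6%. Others were chr16:49309001-49314000 (17.2 to 68.8%), chr15:89950001-89955000 (37.5 to 84.6%) and chr13:100641001-100645000 (25.3 to 60.7%). The region at chr11:63529001-63533000, 3247 bp from the start of ZFTA, rose from 2.48 to 35.0%, the lowest start of the 8 regions with the most called bins. The last, chr10:135049001-135053000, covers the start of the homeobox gene VENTX and went from 38.1 to 65.4%. Averaged over each region, the WT libraries were under 9% in all 8, though single bins were higher. The bin at chr11:63532001-63533000 was at 26.9 to 54.6% in the WT libraries, and that at chr10:135052001-135053000 at 24.9 to 33.2%.

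Among the 12 bins with the largest rises, the TKO SC level was between 3.04 and 29.0% and the WT levels between 0 and 14.0%. The bins at chr4:169798001-169799000 and chr4:169799001-169800000, at the placed start of the uncharacterised gene LOC102723331, rose from 7.41 to 87.5% and from 16.7 to 93.8%. A bin at chrX:138277001-138278000, 9185 bp from the start of FGF13, a fibroblast growth factor homologue that acts inside cells, rose from 20.1 to 97.0%. A bin at chr19:49559001-49560000, 1006 bp from the start of CGB7, a chorionic gonadotropin beta gene whose near-identical copies make its reads uncertain, rose from 15.8 to 92.2%. The bin at the start of CHLSN rose from 20.1 to 93.8%. The bin at chr12:114881001-114882000 lies upstream of TBX5 and is described with it, though its nearest placed start was that of LOC105369998, 4386 bp away. The remaining rises were at chr8:23562001-23563000 (15.8 to 91.7%), chr15:98836001-98837000 (21.2 to 95.4%), chr19:20748001-20749000 (18.4 to 91.5%) and chr12:26379001-26380000 (19.6 to 91.8%). The highest adjusted p of the 12 rises and the 12 falls was 8.82e-11 (Fisher's exact test), and the fewest reads behind a level was 80.

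The largest fall was at chr1:201979001-201980000, from 70.7% in TKO CME to 20.4% in TKO CP, with 75.3% in TKO SC and 0 to 4.03% in the WT libraries. At chr6:6687001-6688000 the level went from 52.0 to 4.98%, next to 4.26% in WT CP, and at chr7:25935001-25936000 from 86.6 to 43.8%. A bin 1493 bp from DMBX1, a homeobox gene of the developing brain, went from 71.3 to 33.3%. At chr17:6757001-6758000 the level went from 74.7 to 28.7% in TKO cells and from 37.5 to 12.2% in WT cells. Bins at chr19:15947001-15948000 (74.99 to 38.0%) and chr1:238648001-238649000 (72.2 to 38.0%) were the exceptions among these falls in that WT cells were highly methylated there, at 78.0 to 87.5% and 84.3 to 95.6%. The other falls were 11581 bp from CDCA4 (87.8 to 49.7%), 3305 bp from RTN2 (59.9 to 24.4%) and 12249 bp from ANKRD18B (66.9 to 30.7%).

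Gene starts were placed for 11449 genes, and 17999 bins (19.2%) lay within 1 kb of one. Of these promoter bins 136 (0.756%) were higher and 10 (0.0556%) lower, close to the shares over all bins, and their median difference was -0.035 points. Among bins at 20 to 80% in TKO CME, 5.53% of promoter bins and 3.43% of the others were higher, but these were not matched on their exact TKO CME level. Most promoters were low at day 3: 91.8% of 12109 windows of 250 bases before a start were under 20% in TKO CME.

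The promoters named from here on were chosen after their values were seen and stand for no group. ATP2A1, the calcium pump of fast skeletal muscle, went from 21.1% in TKO CME to 88.9% in TKO CP, with 9.01% in TKO SC and 0% in WT CME, CP and CM. HSPB6, a small heat shock protein abundant in muscle, went from 29.1 to 86.3% against 8.08% in WT CP. CSRP1, a LIM protein of smooth muscle, went from 42.9 to 89.7% against 5.15% in WT CP. MYH14, a non-muscle myosin heavy chain, went from 20.7 to 58.3% in the more changed of its bins.

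WT1, a factor of kidney, gonad and epicardium, rose from 39.5 to 91.7% against 1.39% in WT CP and 34.7% in TKO SC. HOXD1 rose from 11.2 to 56.8% and from 36.2 to 79.8% in neighbouring bins, against 0.861% and 2.00% in WT CP. REC8, a meiotic cohesin subunit, rose from 18.5 to 76.3% in one bin and from 56.9 to 90.5% in the next, where the WT libraries held 33.4 to 38.0%. HENMT1, which methylates the ends of piRNAs, rose from 18.98 to 71.9% in one bin and from 54.1 to 86.6% in the next, where the WT libraries held 19.3 to 51.5%. FKBP11, a prolyl isomerase of the endoplasmic reticulum, rose from 10.4 to 69.4%, and the potassium channel gene KCNK10 from 20.3 to 70.8%. The bins of FKBP11 and KCNK10 were at 0.42 to 12.02% and 0.152 to 3.09% in the WT libraries.

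The 10 promoter bins that lost included OXTR, the oxytocin receptor gene, which went from 85.8% in TKO CME to 49.1% in TKO CP, with 78.8% in TKO SC and 1.20 to 9.86% in the WT libraries. TNPO2, a nuclear import receptor, went from 45.3 to 13.1% against 1.24% in WT CP. CCDC181 went from 31.4 to 2.57% against 0.0826% in WT CP, the closest to the WT CP level among these 10 promoter bins. ULK1, a kinase that starts autophagy, went from 50.8 to 25.1%, and EIF1AX, a translation initiation factor, from 78.9 to 49.6%. The bin shared by the starts of NAA60 and ZNF597, an imprinted locus, went from 35.6 to 1.16%, with 25.6% in TKO SC and 26.2 to 51.2% in the WT libraries, so TKO CP lay below all other libraries there.

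Some gains lay in bins with intermediate WT levels. ZSCAN5A, a zinc finger gene, stood at 1.56%, 2.05% and 35.9% in TKO cells at SC, CME and CP, while the WT libraries held 35.8 to 42.3%, so it ended within the WT range. UHRF2, a relative of UHRF1 that binds modified cytosine, went from 40.5 to 70.8% with 18.1 to 38.2% in the WT libraries, so it was above them at both stages. At chr19:12476001-12477000 the nearest placed start was that of ZNF799, 34794 bp away, and nearer starts may not have been placed. The level there went from 16.2 to 76.4%, and WT levels were 37.4 to 42.2%. Of 220 promoter bins of ZNF genes on chromosome 19, a group chosen after their values were seen, 7 were higher (3.18%) and none was lower, beside 0.756% of all promoter bins and 1.08% of all bins on chromosome 19.

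Gene lists for the heart and for other lineages were read at promoters and then around them. Only genes with a placed start were read: 10 of 32 cardiac transcription factors, 10 of 34 sarcomere and calcium genes and 8 of 27 early mesoderm genes. At promoters, none of their 28, 26 and 19 bins was called in either direction, and their median differences were 0.575, 0.790 and 1.13 points. The other lists were also placed only in part. At the 0.756% of all promoter bins, lists of this size would hold few calls or none. None was called among 16 bins of Nodal, BMP and FGF signals, 14 of pluripotency genes, 24 of blood and endothelial regulators and 38 of germline genes. Single promoter bins were higher for WNT1 (22.0 to 48.4%) among 36 of WNT ligands and antagonists, for ONECUT1 (19.5 to 48.9%) among 145 of neural and ectoderm factors, for FOXQ1 (28.5 to 54.7%) among 26 of endoderm factors and for UHRF2 among 26 of methylation enzymes. HOXD1 gave both calls among 33 bins of HOX genes, and NAA60 with ZNF597 the loss among 30 bins of imprinted genes. The median TKO CME level of the germline list was 90.3%, so most of its bins could not rise by 25 points.

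Wider windows of 20 kb around the same starts held more calls. Around the 10 placed cardiac transcription factors, 10 of 119 bins were higher (8.40%), against 385 of 39653 bins (0.971%) around all placed starts. The median difference was 3.10 points against 0.810. This window was chosen after values were seen and no test was run on the list. The 10 bins belonged to NR2F2 (4), TBX5 (3) and IRX4 (3). FOXC1, GATA6, HAND1, HEY2, TBX1, TBX18 and TBX20 had none, and their largest differences lay between 0.227 and 21.5 points. Around sarcomere and calcium genes none of 51 bins was called, and around early mesoderm genes 2 of 49 were higher, both near WNT3. Shares above that of all placed starts were also found around pluripotency genes (4 of 66 bins, 6.06%), WNT ligands and antagonists (4 of 93, 4.30%) and HOX genes (5 of 126, 3.97%). The 4 bins of the pluripotency list were all near UTF1 and are those of the VENTX region described above. Around neural and ectoderm factors 26 of 579 bins were higher (4.49%), 8 of them near ONECUT1 and 6 near EMX2, a homeobox gene of the forebrain whose neighbourhood held a bin that went from 21.3 to 92.0%.

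TBX5 is a T-box factor of the heart and forelimb. The bin that holds its placed start was at 1.35%, 2.43% and 21.2% in TKO cells at SC, CME and CP, and was not called, with 9.6% in WT cells at CP and 19.2% at CM. Between 6.82 and 11.8 kb inside the transcribed side, 3 bins went from 17.5 to 55.5%, from 17.7 to 53.0% and from 23.01 to 64.8%, and the WT libraries held 1.97 to 9.97% there. Upstream, 31.2 to 37.2 kb away, 4 bins went from 11.5 to 52.0%, 14.6 to 48.4%, 12 to 89.5% and 54.6 to 80.8%. The third of these lies nearer to the placed start of LOC105369998, 4386 bp away. In that bin the WT libraries held 1.49 to 2.90% and TKO SC 14.1%. Of 15 bins within 40 kb, 7 were higher and none lower, and the gains lay on both sides of the start.

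IRX4 is an Iroquois factor of the ventricles. Its 3 higher bins, 9.29 to 11.3 kb from its first placed start, went from 37.9 to 90.9%, 23.7 to 91.1% and 23.1 to 86.0%. The middle bin, with 43 CpGs, was at 24.97% in TKO SC and at 1.93, 2.17, 0.562 and 2.51% in the WT libraries from SC to CM. The other 24 bins within 40 kb were not called, and 19 of them were over 80% in TKO CP.

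NR2F2 encodes COUP-TFII, a nuclear receptor of atrial and venous cells. Of its 5 higher bins within 40 kb, 4 began from WT-like levels. These 4, at 8.21 to 13.2 kb from the first placed start, went from 0.784 to 35.5%, 3.05 to 65.8%, 5.67 to 56.3% and 3.93 to 45.5%. TKO SC was at 1.44, 3.47, 6.33 and 5.54% in them, and the WT libraries at 0.791 to 9.53%. The other bin, 33.2 kb away, went from 67.1 to 94.8%, with 64.3% in TKO SC and 1.37 to 4.16% in the WT libraries. Of the 19 bins not called within 40 kb, 10 were under 20% in TKO CP.

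**Figure D5:**
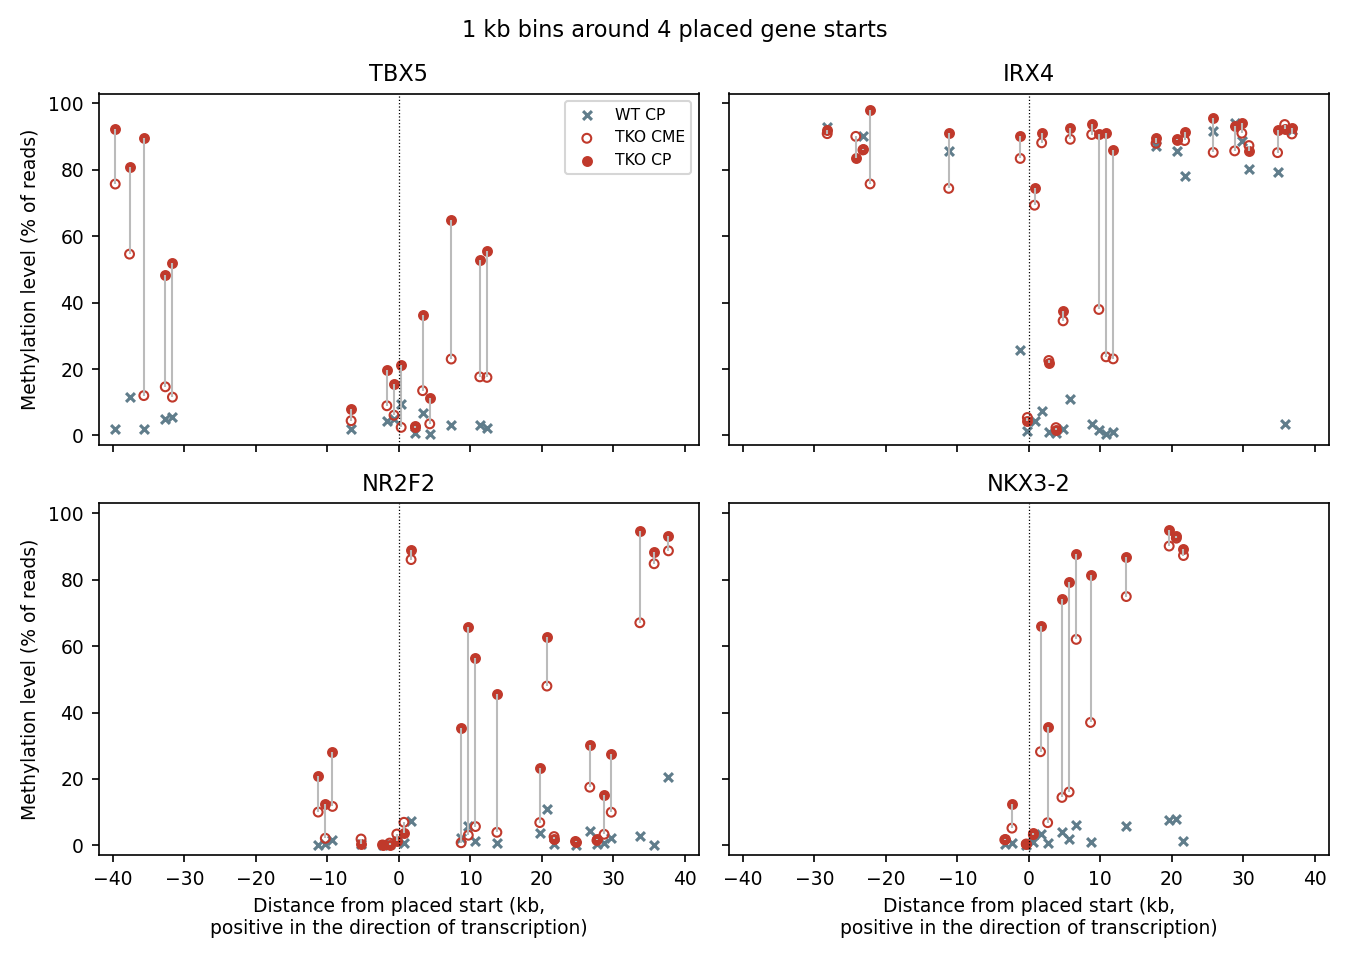
Level (% of reads) of 1 kb bins against the distance of the bin's centre from the first placed start of TBX5, IRX4, NR2F2 and NKX3-2 (kb, positive in the direction of transcription), with grey lines joining TKO CME (open) to TKO CP (filled) and crosses for WT CP. The bins that rose most lie kilobases from the dotted start line, and WT CP is under 12% at each of the higher bins shown.

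The same step in WT cells went the other way. In 89393 bins read in all 4 CME and CP libraries, WT CP was higher than WT CME in 32 bins (0.0358%) and lower in 3109 (3.48%), while TKO CP was higher in 675 (0.755%) and lower in 52 (0.0582%). The difference between the changes was tested in each bin (z test on read shares, Benjamini-Hochberg over bins, with the same limits). TKO change minus WT change was positive and called in 5156 bins (5.77%), and negative and called in 56 (0.0626%). In 2935 of the 5156 it was WT that fell by 25 points or more, in 632 TKO rose by that much, 10 bins did both, and in 1599 neither moved that far. Most of these bins thus do not hold a large TKO gain. Of the 675 TKO gains 5 were also WT gains and 10 were WT losses, and 7 of the 52 TKO losses were also WT losses. The descriptions of WT SC and WT CME carry a suffix that the other 5 libraries lack, and their mitochondrial cytosines, were read as C at 1.46% and 1.44%, against 0.139 to 0.387% in the others, so in WT the stage step and this library difference cannot be told apart.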

How the data were processed

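Alignment and methylation calling were done at a core facility, per the labels' protocols, on hg19, per the submitters' processing notes. Which aligner and caller it used is not given in the sources used here. Each deposited file lists, per cytosine and strand, the coverage as a count of reads and, per the file headers, the percent read as C and as T. Coverage times percent gave whole reads in 100% of lines (tolerance 0.0005 percentage units), and the lowest coverage was 10.

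Both strands were summed per CpG, and bins of 1 kb were compared with Fisher's exact test and, between genotypes, a z test with 0.5 added to each count (Python 3.11.15, numpy 2.4.6, scipy 1.17.1, numba 0.67.0). Tests were checked on simulated reads drawn independently within each bin. That check cannot show the effect of CpGs sharing reads or of variation between libraries. Bins named were the 12 with the largest rise, the 12 with the largest fall and the 8 regions with the most called bins, with neighbouring calls joined across at most 1 bin. The members and gene lists were chosen with earlier results of these data known. Intervals are Wilson and Newcombe at 95% and cover counting error only, and reads carry no molecular identifiers.

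No hg19 annotation was used. The design provided for coordinates alone in that case, and placement of genes was added after the files were seen. RefSeq promoter sequences (GRCh38.p14) were placed on the CpGs listed in hg19 by CpG spacing, with 8 or more CpGs matched and a lead of 3 over any rival. Of 35116 promoters 21319 held enough CpGs and 13600 were placed, 99.9% of them on the chromosome of the RefSeq table. The 13557 whose spacing to a neighbouring placed start matched within 2000 bp were kept. No start on chromosome 8 was placed. Genes not placed are not analysed here, so a nearest placed start need not be the nearest gene.

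Alternatives changed the read and CpG minimums, the size threshold, the strand, depth, bin offset, averaging, conversion and the independence of reads within a bin.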

Additional observations from a re-analysis of the deposited data

Results flagged for a closer look

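The change from CME to CP differed between genotypes in many bins by the z test of the difference itself. TKO change minus WT change was positive and called in 5156 of 89393 bins and negative and called in 56. Of the 5156, WT fell by 25 points or more in 2935, TKO rose by that much in 632, 10 did both and 1599 did neither. Where WT CP was lower than WT CME, the median level went from 78.9% to 38.3% in WT and from 85.3% to 89.4% in TKO. The library difference between WT CME and WT CP described above moves with this contrast, and its part was not tested.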

How the results depend on the processing

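The 686 gains and 55 losses kept within 1.5 times their number under 20 reads per CpG, CpGs read in all 7 libraries, averaged CpG levels, omission of the most covered CpGs, shifted bins, thinned TKO CME reads, the mitochondrial correction and either strand alone, except that 10 CpGs per bin left 26 losses. With 40 points there were 191 gains and 4 losses, with 15 points 1888 and 284, and with reads divided by the CpGs of a bin 441 and 17. The median difference was 1.43 points with 20 reads, 0.619 with 10 CpGs, 1.497 with CpGs read in all libraries, 1.57 after thinning and 1.68 after the mitochondrial correction. Bins with a positive TKO minus WT change numbered 1919 with 10 CpGs, 1658 with 40 points and 2314 with reads divided, and those with a negative one 35 with 20 reads, 18 with 10 CpGs, 8 with 40 points and 14 with reads divided. For WT alone, 19 bins were higher with 20 reads, and 4 higher and 953 lower with 40 points. Fewer bins or reads enter the stricter settings, and the cause of the other shifts was not tested. Over the 24 named bins, 247 of 260 values under 12 settings kept their call, 13 values, all of falls, lost it, 8 of them at 40 points, and none reversed. Genome-wide counts thus rest on the size threshold and on treating reads of a bin as independent. No paired analysis was possible because each genotype and stage had 1 library. Depth limits levels of bins with as few as 50 reads.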
